A study of Mus musculus with 4 samples.

Results

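Peroxisomal fatty acid oxidation was followed in mouse gastrocnemius, the large calf muscle, through 9 genes chosen by name for their role: the enzymes Ehhadh, Hsd17b4, Acaa1a, Acaa1b, Ech1, Pecr and Phyh and the membrane transporters Abcd2 and Abcd3. The choice was made with earlier results of these data known. All 9 had a probe set of their own. A probe set is the group of short array probes that reports 1 transcript. Together the genes took up 14 of the 22690 probe sets, 12 of them naming a single member and 2 naming both Acaa1a and Acaa1b.

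The samples were total RNA from gastrocnemius from mice with extra PPARα, a nuclear receptor, in their muscle (MCK-PPARa) and from wild-type, non-transgenic littermates (NTG), with 2 arrays per group. MCK stands for muscle creatine kinase, whose promoter is active in skeletal and heart muscle. Strain, age, sex and the number of transgenic lines were not given in the sources used here. Only a replicate number links an array to its mouse, so the spread between these samples may be technical. The p-values and standard errors (SE) come from limma, which pools a gene's own spread with that of the others tested. They therefore do not measure the spread of a gene's own arrays alone. The deposited values were linear signal intensities. The comparison asks which of these transcripts differ when PPARα is raised in muscle.

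Peroxisomes shorten very-long-chain, branched and dicarboxylic fatty acids that mitochondria handle poorly. Fatty acyl groups enter through ABC half-transporters of the peroxisomal membrane, an oxidase makes the first double bond, a bifunctional enzyme adds water and oxidises the product, and a thiolase releases acetyl-CoA. In rodent liver these genes are classical targets of PPARα, the receptor named for the peroxisome proliferators that activate it. Skeletal muscle has few peroxisomes, and most of its fatty acid oxidation is mitochondrial.

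PPARα acts through a direct repeat of the half-site AGGTCA with 1 base between the copies, and RefSeq promoter sequences (GRCm38.p6) were searched for it. Windows of 250 bases before the transcript start were listed for 7 of the 9 genes, 8 windows in all. The search covered both strands. The full repeat AGGTCANAGGTCA was in none of the 8 windows and in 0.0335% of all 32851 promoters. A single AGGTCA was in none of the 8 either, against 14.0% of all promoters. No match says only that these letters are not in this window. The windows of Ehhadh and Ech1 are shown because these enzymes had 2 of the 3 largest differences upward, and that of Acaa1b because its signal followed replicate number, as described further on. The capitals mark the 13 bases closest to the repeat on either strand, each with 8 of the 12 fixed positions matching, a closeness that 74.5% of all promoters reach or exceed. The windows are chr16:21787835-21788084 (minus strand), chr7:28825088-28825337 (plus strand) and chr9:119157094-119157343 (minus strand), in the order printed.
Ehhadh: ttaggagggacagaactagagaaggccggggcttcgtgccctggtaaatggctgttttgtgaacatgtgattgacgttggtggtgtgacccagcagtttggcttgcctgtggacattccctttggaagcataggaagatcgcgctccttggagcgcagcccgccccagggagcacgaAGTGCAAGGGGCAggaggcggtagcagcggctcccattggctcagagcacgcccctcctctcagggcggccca
Ech1: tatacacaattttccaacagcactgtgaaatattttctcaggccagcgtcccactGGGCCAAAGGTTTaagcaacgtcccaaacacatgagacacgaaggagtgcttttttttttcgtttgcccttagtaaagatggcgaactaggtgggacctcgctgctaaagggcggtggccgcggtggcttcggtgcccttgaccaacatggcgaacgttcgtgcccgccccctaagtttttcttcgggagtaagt
Acaa1b: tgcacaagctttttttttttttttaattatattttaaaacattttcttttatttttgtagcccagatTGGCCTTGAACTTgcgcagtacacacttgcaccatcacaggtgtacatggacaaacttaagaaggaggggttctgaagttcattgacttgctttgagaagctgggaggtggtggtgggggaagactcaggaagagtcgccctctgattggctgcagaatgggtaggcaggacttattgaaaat
The GC box GGGCGG, a promoter element, occurred 2 times in the Ehhadh window, 2 times in that of Ech1 and 0 times in that of Acaa1b, and in 32.7% of all promoters on either strand. The CCAAT box occurred 1, 0 and 2 times in the same order, and in 33.8% of all promoters.

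The 4 arrays had been scaled by the authors to 1 level, with 2% trimmed means from 1500.6 to 1500.7. Ppara itself read 633 and 2674 in NTG (replicate 1 first, as for all pairs of signals) against 7969 and 15226 in MCK-PPARa, so the groups did not overlap. No source used here says whether its probe set lies in the part of the transcript that the transgene carries. The 13 skeletal muscle markers had a summed signal of 1445527 to 1593044 in NTG and 1509830 to 1745441 in MCK-PPARa. One of them moved with genotype: Myh7, the slow-fibre myosin heavy chain, read 12696 and 6606 in NTG against 2068 and 836 in MCK-PPARa (-2.74 on the log2 scale described further on; limma, unadjusted p = 0.00055, adjusted p = 0.16). Replicate number set arrays apart as well. An 18S ribosomal RNA control, the probe set at its 5′ end, was at 2202 and 2313 on the first arrays of NTG and MCK-PPARa but at 28.9 and 44.7 on the second. Replicate number was therefore treated as a possible batch with 1 array of each group. The hepatocyte markers followed it too: albumin (Alb) read 19525 and 666 in NTG against 9394 and 1148 in MCK-PPARa, and the 4 of 5 markers with a probe set summed to 29317 and 1228.5 in NTG against 13816 and 2240 in MCK-PPARa, with none at 0. Adipocyte markers moved with genotype instead, though not all of them. The 5 of 7 with a probe set summed to 7615 to 7935 in NTG and 17917 to 28942 in MCK-PPARa, with none at 0. Fabp4 was the largest part of each sum, at 4186 and 3820.5 in NTG against 21784 and 10839 in MCK-PPARa. Lipe (0.30) and the dim Lep (-0.006) differed little on the log2 scale. Of the 4 past the filter on dim probe sets, 3 were higher at an unadjusted limma p under 0.05, against 3.33% of all genes tested. In such bulk RNA, more cells of a type and more RNA per cell cannot be told apart.

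Of the 9 genes, Ehhadh, Hsd17b4 and Ech1 had the highest signals in MCK-PPARa relative to NTG muscle, 3.39- to 4.37-fold, while Abcd2 read far lower on both transgenic arrays than on both controls. The thiolases, the transporter Abcd3, Pecr and Phyh differed by less, from -0.48 to 0.65 on the log2 scale. Differences are MCK-PPARa minus NTG after log2(signal + 64.2), a scale that understates those of dim genes (64.2 is 10% of the median signal). They were tested with limma, and no member passed at an adjusted p of 0.05, as 0.0594% of the 8414 genes tested did. At an unadjusted p under 0.05, 3 of the 8 members tested were higher, against 3.33% of all genes, and 0 were lower, against 2.51%. Since the members were chosen with earlier results known, such counts only describe them, and no test over the set was run. The ninth, Abcd2, missed the filter for the test by gene because its MCK-PPARa arrays were dim, so the count of 0 lower leaves it out. It was tested among all 22626 probe sets other than controls, of which 0.0309% passed at an adjusted p of 0.05. There, by brightest probe set, 4 of the 9 members had an unadjusted limma p under 0.05: the same 3 higher, and Abcd2 lower, as 2.33% of probe sets were. With replicate number as a block, 3 of the 8 passed, all higher, where 1.47% of genes tested passed higher and 1.08% lower. With only 2 arrays a group, an exact permutation test cannot give a two-sided p below 0.333.

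**Figure D1:**
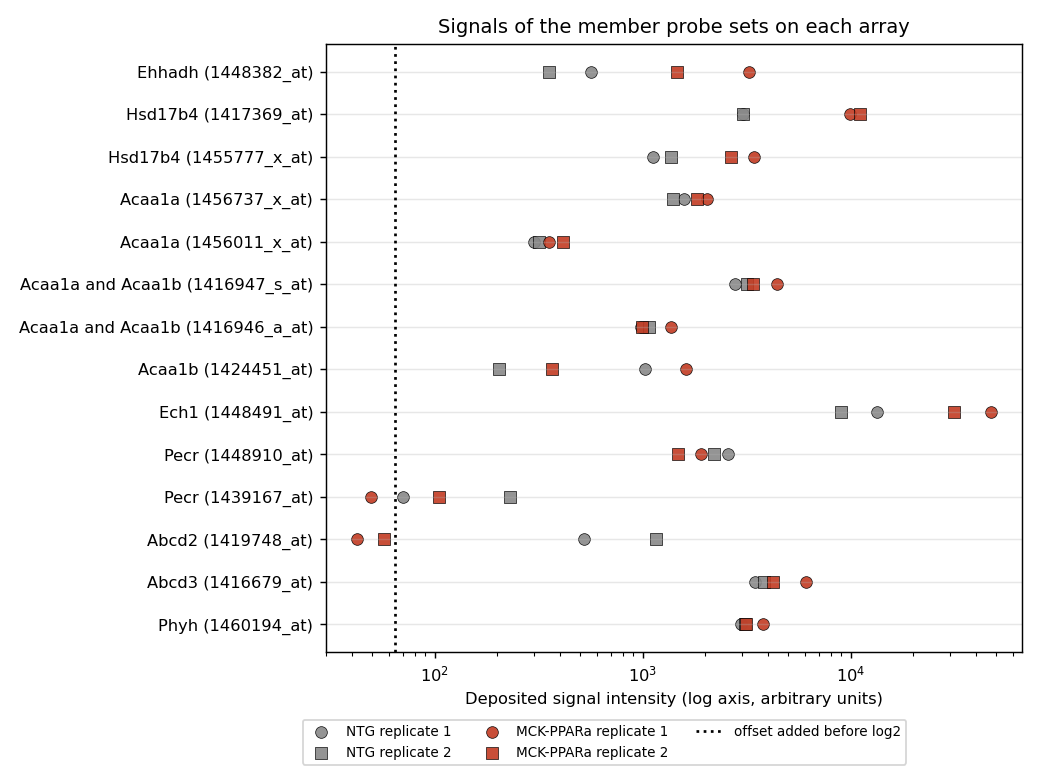
Deposited signal (log axis) of the 14 member probe sets on the 4 arrays, NTG in grey and MCK-PPARa in red, replicate 1 as circles and replicate 2 as squares. The dotted line is the offset of 64.2. For Ehhadh, Hsd17b4 and Ech1 both red symbols lie to the right of both grey ones, for Abcd2 to the left, and Acaa1b separates by symbol shape.

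The bifunctional enzymes carry the middle of the cycle. Ehhadh, the L-bifunctional protein, which hydrates and then dehydrogenates straight-chain and dicarboxylic intermediates, read 566 and 355 in NTG against 3243.5 and 1458.5 in MCK-PPARa. Both transgenic arrays lay above both controls, and within each group the replicate 1 array was the brighter. The difference was 2.13 ± 0.45 (SE, n = 2 per group), or 4.37-fold (limma, unadjusted p = 0.0017, adjusted p = 0.23). It was 2.39 within replicate 1 and 1.86 within replicate 2, and passed with the block (limma adjusted p = 0.0046). The fit by gene with the block called 215 of all genes, against 5 without it. A pass with the block is therefore given throughout as a value and not as support. The hepatocyte markers were also brighter on the replicate 1 arrays, and their part in the Ehhadh signal was not tested. Fits with 1 array left out set a single array against 2, so that the spread came from the other group alone and the lone array was assumed to vary like it. They called 72 to 150 of all genes, against 5 with all 4 arrays, so a pass in them is given as a value and not as support. For Ehhadh the limma adjusted p was 0.0015 or 0.037 when NTG replicate 1 or 2 was missing and 0.15 or 3.2e-05 when MCK-PPARa replicate 1 or 2 was.

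Hsd17b4, the D-bifunctional protein, which does the same steps with the opposite stereochemistry and also serves branched-chain substrates, had 2 probe sets. The brighter one read 3044 and 3047.5 in NTG against 9902.5 and 11106 in MCK-PPARa, so that the replicates of each group nearly coincided and the groups lay far apart. The difference was 1.76 ± 0.29 (SE, n = 2 per group), or 3.39-fold (limma, unadjusted p = 3e-04, adjusted p = 0.11), with 1.68 and 1.84 between the replicate 1 and the replicate 2 arrays. The block gave a limma adjusted p of 0.002. In the fits with 1 array left out, read with the same limit, it was 0.025 and 0.03 for the first and second NTG array and 0.012 and 0.039 for the first and second MCK-PPARa array. A second probe set, of a kind whose probes may match other transcripts, read 1116 and 1361 in NTG against 3441.5 and 2660 in MCK-PPARa. It too was higher on both transgenic arrays, by 1.25 ± 0.32 (SE, n = 2 per group; limma over all probe sets, unadjusted p = 0.0038, adjusted p = 0.45).

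Ech1, a dienoyl-CoA isomerase that repositions the double bonds of unsaturated fatty acids and is found in both peroxisomes and mitochondria, read 13304 and 8998 in NTG against 47046 and 31249 in MCK-PPARa. The groups did not overlap, and the replicate 1 array was again the brighter in each. The difference was 1.80 ± 0.35 (SE, n = 2 per group), or 3.49-fold (limma, unadjusted p = 0.001, adjusted p = 0.2), and was nearly the same within each replicate number, 1.82 and 1.79. It passed with the block (limma adjusted p = 0.0015). With 1 array left out the limma adjusted p was 0.0026 without NTG replicate 1 and 0.0078 without MCK-PPARa replicate 2, but it missed the threshold without NTG replicate 2 (0.13) and without MCK-PPARa replicate 1 (0.093). The higher adipocyte markers and the lower Myh7 stand beside all 3 of these differences, and their part in them was not tested.

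Abcd2 and Abcd3 are half-transporters that bring fatty acyl-CoA into the peroxisome, Abcd2 preferring very-long-chain and polyunsaturated ones and Abcd3 long-chain, branched and dicarboxylic ones. Abcd2 read 522 and 1161 in NTG against 42.5 and 56.8 in MCK-PPARa. Both MCK-PPARa arrays were far below both controls and below the offset. Its mean over the 4 arrays, 445.7, fell just short of the 453.3 (the 40th percentile of all probe sets) needed for the test by gene. Among all 22626 probe sets it was lower by -2.90 ± 0.59 (SE, n = 2 per group; limma, unadjusted p = 0.00086, adjusted p = 0.26), where 2.33% of probe sets were lower at an unadjusted p under 0.05. The difference was -2.46 within replicate 1 and -3.34 within replicate 2, and passed with the block (limma adjusted p = 0.034; 0.499% of probe sets passed lower). With 1 array left out it passed only without NTG replicate 1 (-3.43, limma adjusted p = 0.026), and the limma adjusted p was 0.42 when the other NTG array was missing and 0.25 or 0.42 when MCK-PPARa replicate 1 or 2 was. Its size depended on the offset, from -3.82 with 1% of the median to -1.59 with 50%, so no fold is given. Without detection calls it cannot be said whether the transgenic signals were above background.

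Abcd3, the abundant peroxisomal membrane protein PMP70, read 3477 and 3813 in NTG against 6076 and 4208 in MCK-PPARa. The transgenic arrays were above the controls, but replicate 2 only narrowly so. The difference was 0.47 ± 0.31 (SE, n = 2 per group; limma, adjusted p = 0.96), with a 95% interval from -0.26 to 1.19, and was 0.79 within replicate 1 and 0.14 within replicate 2.

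**Figure D2:**
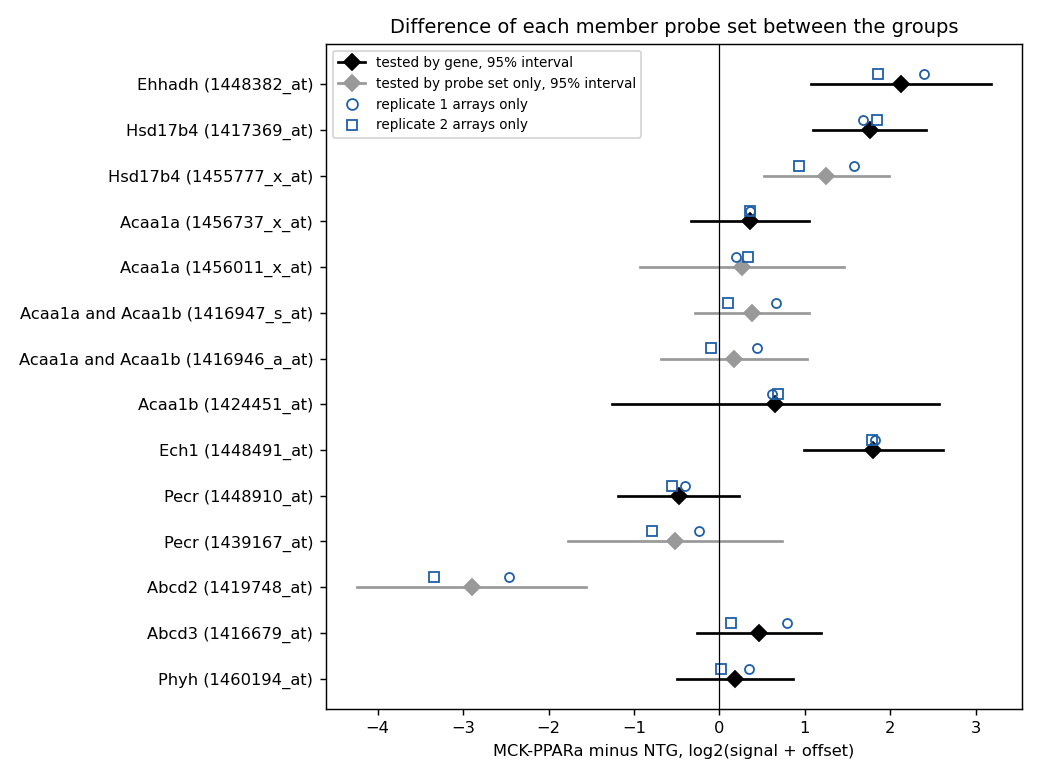
Difference of each member probe set, MCK-PPARa minus NTG, on the log2 scale. Diamonds with bars are limma estimates with 95% intervals, black for the probe set tested by gene and grey for those tested by probe set only, and open blue symbols are the differences between the replicate 1 arrays (circles) and the replicate 2 arrays (squares). The intervals of Ehhadh, both Hsd17b4 probe sets and Ech1 lie above 0 and that of Abcd2 below it, before adjustment for the number of tests.

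The thiolases close the cycle by splitting off acetyl-CoA. Acaa1a and Acaa1b are close paralogs, and the array has 5 probe sets for them, of which 2 name both genes and 2 more are of the kind whose probes may match other transcripts, so their signals cannot be assigned with certainty. The brighter Acaa1a probe set read 1578 and 1394 in NTG against 2039 and 1812 in MCK-PPARa, a difference of 0.36 ± 0.30 (SE, n = 2 per group; limma, adjusted p = 0.96; 95% interval -0.33 to 1.05). Both transgenic arrays were above both controls, by 0.36 within each replicate number. The dimmer Acaa1a probe set (301 and 315 against 353 and 413.5) gave 0.26 ± 0.53 (SE, n = 2 per group; limma over all probe sets, adjusted p = 0.99). The shared probe sets read 2768 and 3169.5 against 4436 and 3400 (0.38 ± 0.29, adjusted p = 0.98) and 982 and 1073 against 1361 and 996 (0.17 ± 0.38, adjusted p = 0.99), in NTG and MCK-PPARa respectively.

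Acaa1b varied more by replicate number than by genotype. Its own probe set read 1027 and 202.5 in NTG against 1610 and 365 in MCK-PPARa, so the replicate 1 arrays of both groups were far above the replicate 2 arrays and the groups overlapped. Replicate 1 exceeded replicate 2 by 2.00 on average over the groups (2.03 in NTG and 1.97 in MCK-PPARa, in absolute terms), against 0.65 ± 0.83 (SE, n = 2 per group; limma, adjusted p = 0.98; 95% interval -1.26 to 2.57) for genotype. Within each replicate number MCK-PPARa was higher, by 0.62 and 0.69. In mouse this gene is known chiefly from liver, and the hepatocyte markers too were brighter on the replicate 1 array of each group. Their mean replicate 1 minus replicate 2 differences were 3.85 for Alb, 2.89 for Apoa1, 3.04 for Ttr and 1.52 for Fgb. Ttr and Fgb were high mainly on NTG replicate 1: Ttr read 3880 and 31.7 in NTG against 848 and 487 in MCK-PPARa, and Fgb 686 and 47.3 against 64.5 and 41.8. Between the replicate 1 arrays all 4 markers were lower in MCK-PPARa, from -0.57 (Apoa1) to -2.54 (Fgb), where Acaa1b was higher by 0.62. Between the replicate 2 arrays Alb (0.73), Apoa1 (0.20) and Ttr (2.52) were higher in MCK-PPARa and Fgb was at -0.07. Acaa1b was higher there by 0.69. The part of the hepatocyte markers in the Acaa1b signal was not tested. Without NTG replicate 2 the genotype difference turned to -0.36 and without MCK-PPARa replicate 1 to -0.33, while it was 1.67 without NTG replicate 1 and 1.63 without MCK-PPARa replicate 2.

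**Figure D3:**
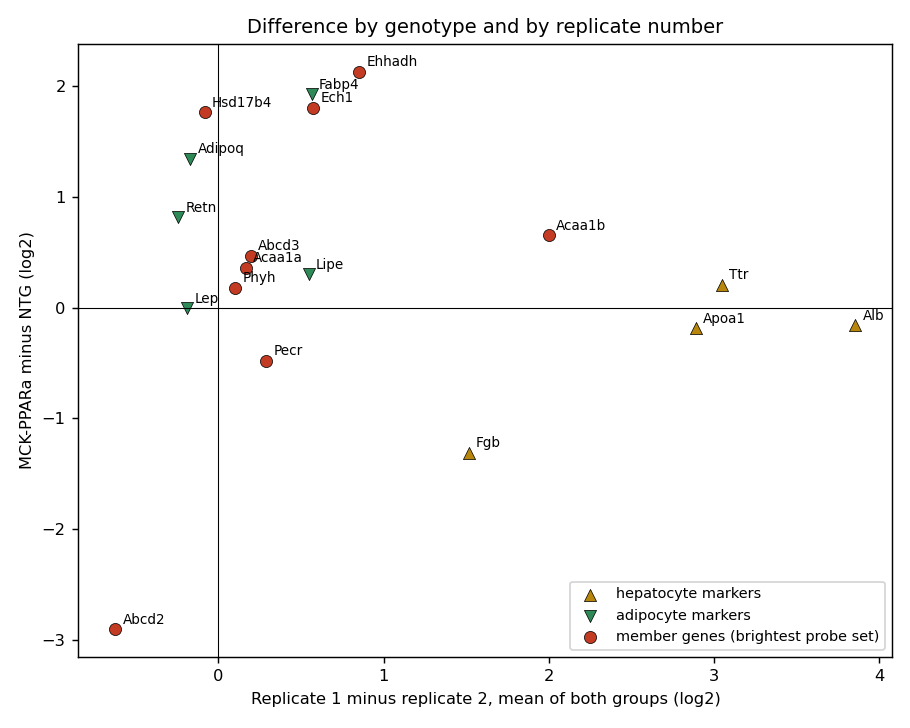
Difference by genotype (vertical, MCK-PPARa minus NTG) against difference by replicate number (horizontal, replicate 1 minus replicate 2, mean of both groups), both in log2, for the 9 members and for the hepatocyte and adipocyte markers with a probe set. Acaa1b lies at 2.00 on the horizontal axis, on the side of the hepatocyte markers, while the other 8 members lie between -0.62 and 0.85.

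Pecr and Phyh act beside the cycle. Pecr, an NADPH-dependent enoyl-CoA reductase that saturates rather than oxidises its substrate, was the only member tested by gene with a difference below 0. Its brighter probe set read 2555 and 2187 in NTG against 1913 and 1472 in MCK-PPARa, both transgenic arrays below both controls. The difference was -0.48 ± 0.31 (SE, n = 2 per group; limma, adjusted p = 0.96; 95% interval -1.19 to 0.23), and -0.41 and -0.55 within replicate numbers. A second Pecr probe set was near the offset, at 70.3 and 229 in NTG against 49.5 and 105 in MCK-PPARa, and overlapped. Phyh, the hydroxylase that starts the α-oxidation of phytanic acid, read 2978 and 3105 in NTG against 3792 and 3146 in MCK-PPARa. Its difference of 0.18 ± 0.29 (SE, n = 2 per group; limma, adjusted p = 0.98; 95% interval -0.50 to 0.86) was the nearest to 0 of the 8 tested, and between the replicate 2 arrays it was 0.02.

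The members thus spread widely. The groups did not overlap for 6 of the 8 tested members on the higher side, where 20.4% of genes did so, and for 1 on the lower side, where 13.8% did, but for Abcd3 and Phyh the gap was small. The median difference of the 8 was 0.56, beside 0.05 over all genes tested, and was 1.06 when NTG replicate 1 was left out, 0.24 when MCK-PPARa replicate 1 was and 1.18 when MCK-PPARa replicate 2 was. The genes whose signal over the 4 arrays was most like that of Ehhadh, by root mean square distance of centred log2 values among 8406 others, were Gal3st1 at 0.17, Ppp1r1a at 0.18 and Scd1 at 0.19, against a median distance of 1.18.

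Other peroxisomal genes were taken from 4 lists of 61 genes, of which 41 were tested. Over the 41, none passed limma's adjusted threshold, and the median difference was 0.54. At an unadjusted p under 0.05, 15 were higher and 0 lower, against 3.33% and 2.51% of all genes tested. The same shares stand beside the counts of each list below. With the block 13 passed, all higher, where 1.47% of genes tested passed higher. Decr2, Eci3, Acox3 and Hacl1 are among the 41 only through their MCK-PPARa arrays, which lifted their means over the filter. Decr2 is counted in the 15 and in the 13. These lists too were chosen with earlier results known. Of these lists, that of the entry and auxiliary steps of β-oxidation had 14 tested genes, 5 of them higher at an unadjusted p under 0.05. Ephx2, the soluble epoxide hydrolase, was put on this list and is counted in those 5, though it acts on epoxides and not in β-oxidation itself. It read 2333 and 1635 in NTG against 18547 and 9357 in MCK-PPARa, a larger difference (2.71 ± 0.40, SE, n = 2 per group; limma, adjusted p = 0.083) than that of any member tested by gene. Next by p were Scp2, which includes a thiolase for branched chains (1.30 ± 0.28), the enoyl-CoA isomerase Eci2 (1.23 ± 0.28) and the dienoyl-CoA reductase Decr2 (1.54 ± 0.39), with limma adjusted p from 0.25 to 0.34. The oxidase genes Acox2 (0.46) and Acox3 (0.24), named after their values were seen, were not among those 5.

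The import and α-oxidation list had 3 genes tested and none at an unadjusted p under 0.05. Hacl1, the lyase that follows Phyh, read 385 and 396 in NTG against 1031 and 654 in MCK-PPARa (0.96 ± 0.45, SE, n = 2 per group; limma, adjusted p = 0.89), and the fatty aldehyde dehydrogenase Aldh3a2 differed by 0.56 ± 0.44. Slc27a2, a very-long-chain acyl-CoA synthetase abundant in liver, read 1414.5 and 72.4 in NTG against 684 and 49.1 in MCK-PPARa, high on both replicate 1 arrays as Acaa1b was.

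Peroxins build the organelle. Of 11 tested, 4 were higher at an unadjusted p under 0.05, and the median was 0.70. They were Pex11a, which drives peroxisome division (1.49 ± 0.37), Pex16 (1.41 ± 0.37) and Pex19 (1.09 ± 0.30), which place membrane proteins, and Pex6 (1.04 ± 0.32), an ATPase that recycles the import receptor, with limma adjusted p from 0.34 to 0.52. Among 13 other peroxisomal proteins, 6 were higher at an unadjusted p under 0.05. Smallest in p were the protease Lonp2 (1.66 ± 0.30), catalase (Cat, 1.51 ± 0.30), which breaks down the peroxide that the oxidases make, the dehydrogenase Dhrs4 (1.43 ± 0.31) and the malonyl-CoA decarboxylase Mlycd (1.19 ± 0.29), with limma adjusted p from 0.17 to 0.31. Of the 41 genes, 34 had a difference above 0 and 7 below, which became 33 and 8 when each array was centred on its median, a step that moved the median of all genes by -0.10 and turned no member tested by gene.

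The mitochondrial counterparts are given for scale. All 16 tested were above 0 with a median of 1.20, and 14 were higher at an unadjusted p under 0.05, with the smallest p for Etfdh (2.33 ± 0.31), Slc25a20 (2.36 ± 0.34), Decr1 (2.03 ± 0.30) and Acadvl (1.46 ± 0.29), whose limma adjusted p ran from 0.083 to 0.2. The difference between the mitochondrial list and the members was not tested.

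**Figure D4:**
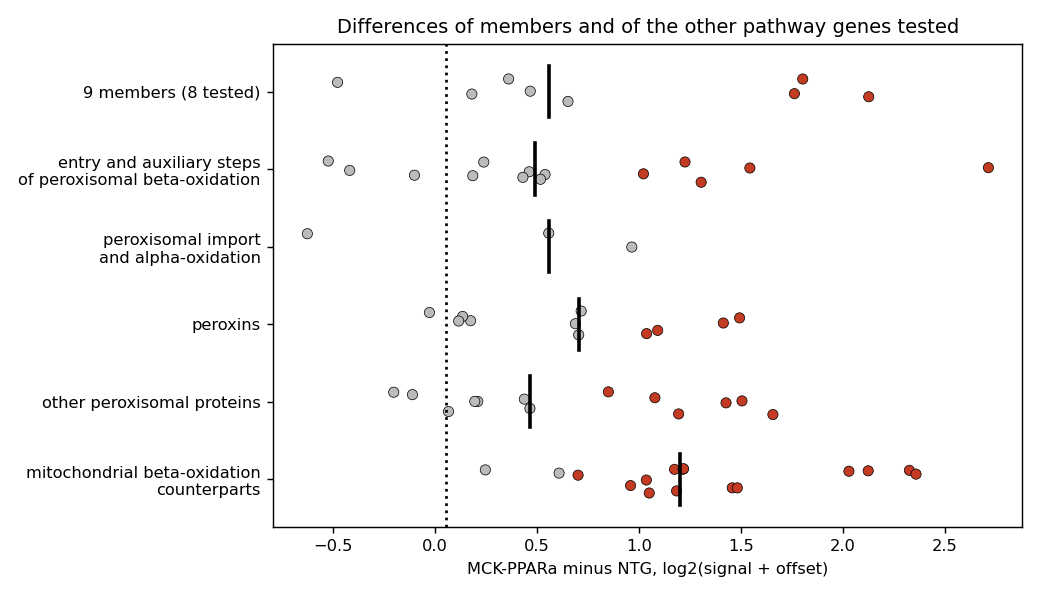
Differences (MCK-PPARa minus NTG, log2) of the 8 members tested by gene and of the tested genes of 5 lists, 1 point per gene, red where the unadjusted limma p was under 0.05. Black bars are medians, and the dotted line is the median of all genes tested, 0.05. In the members' row 3 red points lie from 1.76 to 2.13 and the other 5 between -0.48 and 0.65.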

How the data were processed

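Total RNA from 4 muscle samples was measured on 1 Affymetrix mouse array each. The authors deposited linear signal intensity values, 1 per probe set, made with MAS5 per the submitters' processing notes. Version, settings and detection calls were not given in the sources used here. Trimmed means were equal across arrays, so the deposited values were used without further normalization. Arrays have no read depth, and their number limits the precision. Gene names came from the platform annotation. Of 22690, 64 were controls, 20380 had 1 gene symbol, 691 several and 1555 none here.

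Values were taken as log2(signal + 64.2). A probe set needed a mean at or above the 40th percentile (453.3), and each gene was represented by its brightest one, which gave 8414 genes. That mean spans both groups, so Decr2, Hacl1, Eci3 and Acox3 passed through their MCK-PPARa arrays, brighter on average, while Abcd2 missed through its dim ones. Groups were compared in limma 3.58.1 under R 4.3.3 (lmFit, eBayes with a variance trend, two-sided, Benjamini-Hochberg, threshold 0.05). The fit by gene had 7.76 degrees of freedom in all, of which 2 came from a gene's own arrays. Members' other probe sets were tested among all 22626 without a filter. The fit was tested on simulated data. The members and lists were chosen with earlier results of these data known. Named genes were all members and Ppara, up to 4 per list by smallest p, and the 3 nearest Ehhadh in profile. The 14 alternatives were other offsets, filters, normalizations and variance priors, the handling of probe sets, the replicate block and each array left out.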

Additional observations from a re-analysis of the deposited data

How the results depend on the processing

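Across the 14 alternatives, the differences of Ehhadh (1.57 to 2.69), Hsd17b4 (1.51 to 1.84), Ech1 (1.51 to 2.10), Acaa1a (0.26 to 0.45), Abcd3 (0.21 to 0.73), Phyh (0.05 to 0.31) and Pecr (-0.66 to -0.30) kept their direction, as did that of Abcd2 in the 10 run on every probe set (-3.82 to -1.59). The count of genes past an adjusted p of 0.05, 5 as reported, was 2 with quantile normalization, 1 with median centring, 3 without a variance trend, 16 with the mean of a gene's probe sets, 215 with the replicate block and 72 to 150 with 1 array left out. The count of members, 0 as reported, was 3 with the replicate block and 1 to 3 with 1 array left out. The count of genes of the 5 pathway lists, 0 as reported, was 3 with the mean of probe sets, 26 with the replicate block and 6 to 7 with 1 array left out. With median centring the limma adjusted p was 0.43 for Ehhadh, 0.19 for Hsd17b4 and 0.42 for Ech1. Without a variance trend it was 0.35, 0.24 and 0.35 in the same order. The members' median difference was 0.24 to 1.18 with 1 array left out. That of Acaa1b was then -0.36 to 1.67, that of the dimmer shared thiolase probe set -0.041 to 0.39 and that of the dimmer Pecr probe set -1.08 to 0.045, each reversing in part of these fits. The cause was not tested.

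The labels do not say what a replicate number marks. Deviations from the group means correlated at r = 0.47 between same-numbered arrays, across genes, which are not independent replicates. Without detection calls, signals near the offset, such as those of Abcd2 in MCK-PPARa and of the dimmer Pecr probe set, cannot be told from background.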
